A study of Mus musculus with 8 samples.

Results

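The receptor and kinase genes of cytokine signaling followed here across bone marrow T cells were Il7r, Il2rb, Il2rg, Il15ra, Il18r1, Il18rap, Il12rb2 and Jak3. They are 8 of the 32285 genes counted in the 4 single-cell gene expression libraries, and each symbol matched 1 gene. The genes were selected on measured values of these same libraries, with their pattern over T cell states and the group difference of Jak3 already known. Their levels across states are therefore a description with no test, and the tests between groups are not independent evidence for genes picked in this way.

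The 2 groups were C57BL/6 mice that carry a Runx1::Runx1t1 knock-in allele, with or without Mx1-Cre. Runx1::Runx1t1 joins the DNA-binding part of the transcription factor Runx1 to the corepressor Runx1t1, a fusion found in acute myeloid leukemia. Mice with Mx1-Cre form the Runx1::Runx1t1 group, and sex-matched littermates with Runx1Runx1t1/+ and no Mx1-Cre form the control group, which the labels call WT. Poly(I:C), which induces interferon, was injected into the peritoneum of both groups 4 times, on alternate days and at 5 mg/kg, and marrow was taken 4 weeks after induction. Mx1-Cre is switched on by interferon in many cell types of the body, so it is not specific to T cells. Each pool mixed the marrow of 2 mice, each group had 2 pools, and CD3+ cells that were negative for DAPI and mCherry were sorted for expression and T cell receptor libraries. mCherry reports expression of the fusion in these mice, so the sort was for T cells without it. The age of the mice is not given in the sources used here.

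Il7r, Il2rb and Il15ra encode chains that bind the homeostatic cytokines IL-7 and IL-15, and they signal together with the common gamma chain encoded by Il2rg. Jak3 is the kinase bound to that shared chain, and it activates Stat5 together with Jak1. Il18r1 and Il18rap encode the 2 chains of the IL-18 receptor, which signals through Myd88, while Il12rb2 encodes the signaling chain of the IL-12 receptor and acts through Stat4. Naive T cells are known for their dependence on IL-7, memory Cd8 and NK-like T cells for IL-15, and IL-12 with IL-18 for driving interferon gamma in differentiated cells.

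The 4 libraries held 13633 to 14664 barcodes with a median of 6239 to 6368 UMIs (unique molecular identifiers, which count RNA molecules once). Of the 56649 barcodes, 55850 passed the minimum of 200 genes and the limit of 15% on mitochondrial UMIs, and 52369 passed as T cells. Between 256 and 306 barcodes were shared by any pair of libraries. Runx1t1, the partner joined to Runx1, was at 1.11 and 1.2 UMIs per 1000000 UMIs (CPM) in the Runx1::Runx1t1 pools against 0.176 and 0.432 CPM in the control pools. Neutrophil granule genes differed as well: their summed level in memory Cd8 cells was 1.33 to 1.66 CPM in the Runx1::Runx1t1 pools and 12.5 to 44.7 CPM in the control pools, and control replicate 1 was the higher in each tested state. In the Runx1::Runx1t1 pools 0 or 1 of these 7 genes had no UMI there, and all 7 were detected in both control pools. The part of this RNA in the results below was not tested.

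T cells were placed in states by UMIs of fixed marker genes and not by clustering. Cd8 cells had a Cd8a or Cd8b1 UMI and no Cd4 UMI, and among them naive cells had 3 or more of 8 naive genes such as Ccr7 and Lef1 with at most 1 of 10 memory genes. Memory Cd8 cells had 3 or more memory genes such as Ccl5 and Nkg7, and both states had no Pdcd1 UMI, while Pdcd1 Cd8 cells had at least 1. There were 375 to 1632 naive, 3476 to 4626 memory and 127 to 2368 Pdcd1 Cd8 cells per pool, and 822 to 1085 cells per pool had exactly 2 memory genes and were left out. Ccr7 stood at 986 to 1789 CPM in naive and at 235 to 548 CPM in memory Cd8 cells, and Ccl5 at 11.6 to 57.9 and at 6461 to 9136 CPM, levels that the gate itself sets. Of the Pdcd1 cells, 338 of 691 and 841 of 2368 in the Runx1::Runx1t1 pools and 96 of 127 and 105 of 129 in the control pools rested on 1 Pdcd1 UMI. Lag3, an inhibitory receptor not used in the gate, was at 335 and 532 CPM in these cells of the Runx1::Runx1t1 pools and at 108 and 62.1 CPM in those of the control pools, so the state was not alike in the 2 groups. Co-receptor-negative cells with a receptor of both alpha and beta chains and 2 or more NK receptor genes numbered 262 to 2003 per pool, and 75 to 291 of them carried the TRAV11-TRAJ18 chain of invariant NKT cells.

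Of the 8 genes, 7 had start-site windows in the RefSeq promoter table for GRCm38.p6, 10 windows in all. The windows were searched on both strands for TGTGGT, the core motif that the DNA-binding part of Runx1 recognizes, although the sorted cells were negative for the reporter of the fusion. It was found in 4 of the 10 windows and in 16.8% of all 32851 windows of the same length (250 bases before and 50 after a start). The sites are shown with 12 bases on either side, 5′ to 3′ on the strand of the gene and with the motif in capitals, followed by the stretch upstream of Jak3, which held no match:
Il18r1, chr1:40465630-40465659, plus strand: acaggtggttctTGTGGTtgagtagacagg
Il18rap, chr1:40515381-40515410, plus strand: caactaaacctaACCACAacccctttcttg
Il7r, chr15:9529856-9529885, minus strand: tagttccctgtcTGTGGTttagcaggcaca
Il2rg, chrX:101268465-101268494, minus strand: ggaatgatggtgTGTGGTgggggtgggtgt
Jak3, chr8:71676133-71676295, plus strand: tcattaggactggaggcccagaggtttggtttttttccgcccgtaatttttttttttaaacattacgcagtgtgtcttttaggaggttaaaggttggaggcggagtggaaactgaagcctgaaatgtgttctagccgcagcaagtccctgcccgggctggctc
The motif began 22 bases into the transcript of Il18r1, at base 4 of Il7r and 227 bases before the start of Il2rg, and lay on the opposite strand at base 32 of Il18rap. The other Il18r1 windows and those of Il15ra, Il12rb2 and Jak3 had no match. A match is a run of letters and does not show binding.

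The genes lie on chromosomes 1, 2, 6, 8, 15 and X of GRCm38. Il18r1 (ENSMUSG00000026070, 40465552 to 40500854) and Il18rap (ENSMUSG00000026068, 40515362 to 40551705) neighbor each other on the plus strand of chromosome 1. Jak3 (ENSMUSG00000031805) spans 71676296 to 71690575 on the plus strand of chromosome 8 and overlaps Insl3 on the same strand. Only 81 UMIs in all libraries were assigned to Insl3, against 30967 to Jak3. Il12rb2 (ENSMUSG00000018341) spans 67291318 to 67376188 on the minus strand of chromosome 6 and overlaps the more abundant Serbp1 on the plus strand.

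**Figure D1:**
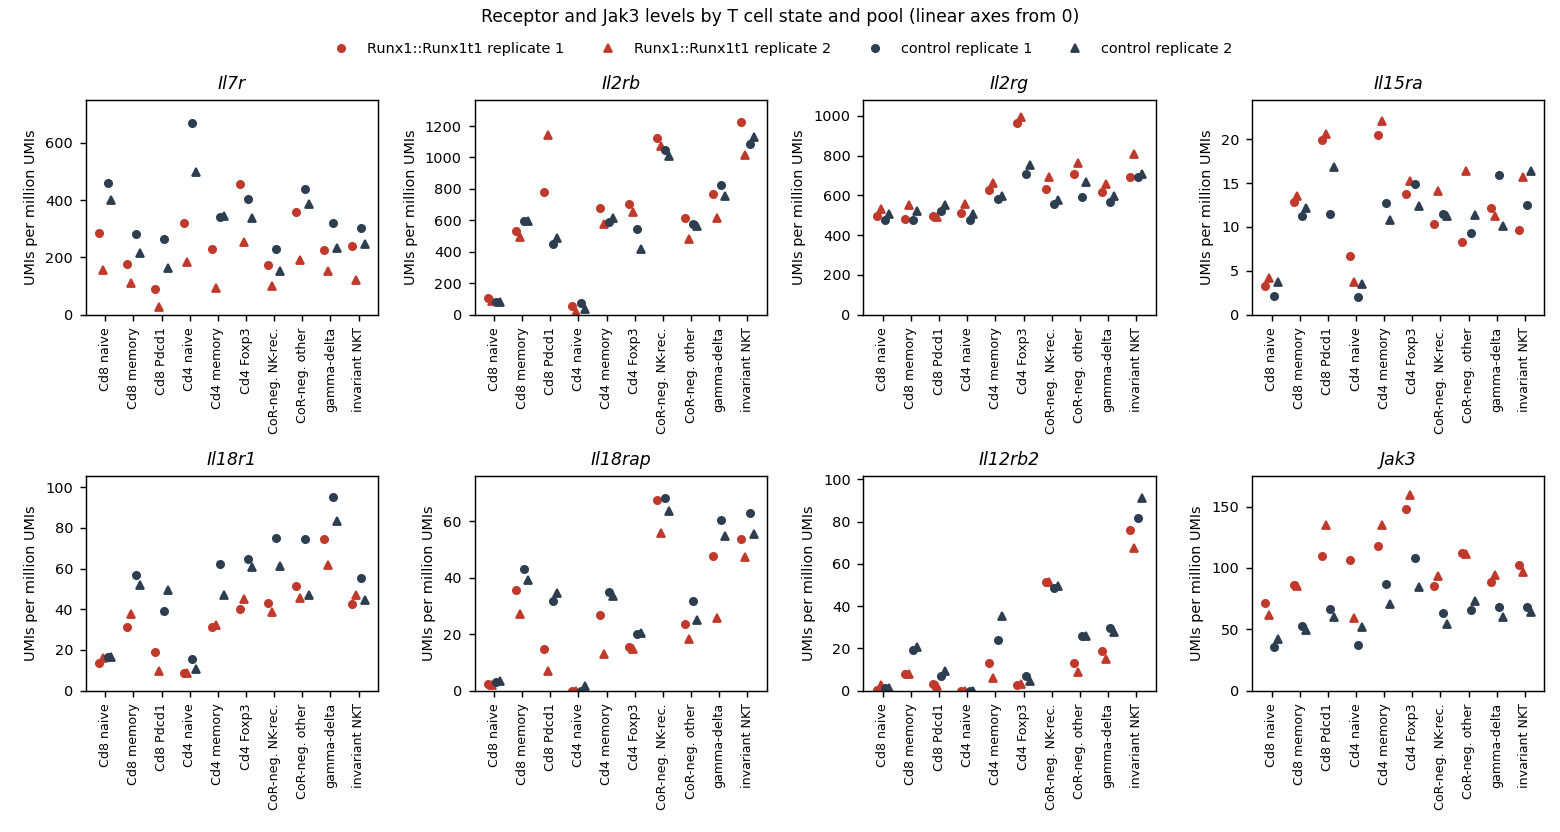
Level of each gene in 10 T cell states, in UMIs per 1000000 UMIs of the summed cells, on linear axes that start at 0. Each point is 1 pool: red for Runx1::Runx1t1, dark for control, circles for replicate 1 and triangles for replicate 2. "CoR-neg. NK-rec." are co-receptor-negative alpha-beta T cells with NK receptor UMIs. Jak3 is higher in both red pools in every state shown, and Il2rb spans 18.8 to 1229 CPM over the states.

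The IL-7 receptor chain Il7r was highest in naive cells of the control pools and in Foxp3 Cd4 cells of the Runx1::Runx1t1 pools. In control pools it stood at 670 and 497 CPM in naive Cd4 cells and at 459 and 401 CPM in naive Cd8 cells, and it was lowest, at 228 and 154 CPM, in the co-receptor-negative cells with NK receptors. Breaks in the control order lay below naive Cd4 cells and below memory Cd4 cells, and each of the lowest 5 states overlapped with its neighbor. Memory Cd8 cells had 0.540 to 0.705 times the level of naive Cd8 cells of the same pool. Foxp3 Cd4 cells were at 457 and 255 CPM in the Runx1::Runx1t1 pools and at 404 and 338 CPM in the control pools, and the groups overlapped.

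Il7r was lower in both Runx1::Runx1t1 pools than in either control pool in naive, memory and Pdcd1 Cd8 cells and in naive and memory Cd4 cells. Naive Cd8 cells had 286 and 155 CPM in Runx1::Runx1t1 replicates 1 and 2, below the 2 control values above. Memory Cd8 cells had 176 and 109 CPM against 282 and 216 CPM in control replicates 1 and 2. Pdcd1 Cd8 cells had 89.5 and 26.2 CPM against 264 and 163 CPM. Replicate 2 of the Runx1::Runx1t1 group was the lowest pool in each of the 10 T cell states. None of the 6 between-group tests of Il7r passed the threshold of adjusted p under 0.05 (edgeR quasi-likelihood test on counts summed per pool, Benjamini-Hochberg over all genes tested). The log2 fold changes ran from -0.48 to -1.98 with adjusted p from 0.192 to 0.749. The call depended on single pools. Fits that leave 1 pool in a group assume that it varies like the others, and some passed while others did not. Without Runx1::Runx1t1 replicates 1 and 2 in turn, the edgeR change in naive Cd8 cells was -1.50 and -0.54. Without control replicates 1 and 2 in turn it was -0.82 and -0.99. In Pdcd1 Cd8 cells the same fits gave, in that order, -3.13, -1.28, -1.56 and -2.27. With the replicate block Il7r passed in 5 of the 6 states, although same-numbered pools share a number and not animals. The log2 fold change was then -0.97 in naive, -0.84 in memory and -2.12 in Pdcd1 Cd8 cells (edgeR adjusted p = 4.68e-16, 0.00309 and 0.0497), -1.19 in naive Cd4 cells (edgeR adjusted p = 6.61e-11) and -0.53 in the co-receptor-negative cells with NK receptors (edgeR adjusted p = 1.55e-08). Memory Cd4 cells had -1.16 and did not pass (edgeR adjusted p = 0.589). Deviations of same-numbered pools correlated at 0.0672 to 0.317 over the 6 states, and the fits without the block are the main ones.

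Il2rb, the beta chain that IL-2 and IL-15 share, was at the other end of differentiation. It was low in naive cells, at 109 and 88.3 CPM in naive Cd8 cells of the Runx1::Runx1t1 pools and 81.8 and 80.9 CPM in those of the control pools. In memory Cd8 cells it reached 530 and 491 CPM in the Runx1::Runx1t1 pools and 599 and 596 CPM in the control pools, 4.86 to 7.36 times the naive level of the same pool. In both control pools and in Runx1::Runx1t1 replicate 1 it was highest in invariant NKT cells and next in the co-receptor-negative cells with NK receptors, at 1018 to 1229 and 1009 to 1122 CPM over the 4 pools. In Runx1::Runx1t1 replicate 2 it was highest in Pdcd1 Cd8 cells, at 1140 CPM. These 2 states share cells, and their ranges overlapped in the Runx1::Runx1t1 pools and not in the control pools.

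Of the 6 states tested between groups, Il2rb passed in Pdcd1 Cd8 cells. It stood at 778 and 1140 CPM in Runx1::Runx1t1 replicates 1 and 2 and at 450 and 486 CPM in control replicates 1 and 2, and the groups did not overlap. The edgeR log2 fold change was 0.97 ± 0.16 (SE, n = 2 pools per group, adjusted p = 0.0232). In that state 2 of the 8 genes passed, Il2rb and Jak3, where 2.63% of the 9761 genes tested did. The test of Il2rb lost its threshold without control replicate 1 (0.94, edgeR adjusted p = 0.297) and without control replicate 2 (1.03, edgeR adjusted p = 0.243), fits that called 0 genes in all, and under a stricter gate (0.72, edgeR adjusted p = 0.0876). Without expanded clonotypes the log2 fold change of Il2rb was 0.65 and passed (edgeR adjusted p = 0.0303). In Runx1::Runx1t1 replicate 2, 1 clonotype with 1518 CPM of Il2rb held 38% of the Pdcd1 Cd8 cells. The part of that clonotype in the group difference was not tested. Within the Runx1::Runx1t1 pools Pdcd1 cells had 1.47 and 2.32 times the Il2rb of memory cells, and within the control pools 0.751 and 0.816 times.

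The group difference of Il2rb also differed between memory and naive Cd8 cells. It was -0.23 ± 0.069 in memory cells (edgeR adjusted p = 0.0932) and 0.32 ± 0.10 in naive cells (edgeR adjusted p = 0.117). The interaction, a test of the difference itself with each pool as a block, was -0.55 ± 0.080 (edgeR adjusted p = 2.83e-06). Of the 8 genes this was the 1 that passed, where 1.87% of 12206 genes did. Without the pool block the value was -0.54 (edgeR adjusted p = 0.379), under a stricter gate it was 0.14 (edgeR adjusted p = 0.986), and without Runx1::Runx1t1 replicate 1 it was -0.39 (edgeR adjusted p = 0.0513). Of the naive cells, 702 of 790, 342 of 375, 1366 of 1632 and 1219 of 1393 (Runx1::Runx1t1 replicates 1 and 2, then control) had 1 memory gene, the most the gate allows. The stricter gate turned the naive difference of Il2rb to -0.33 (edgeR adjusted p = 0.853).

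Il15ra, the chain that presents IL-15 and completes its high-affinity receptor, was a low gene throughout, at 1.96 to 6.74 CPM in naive Cd4 and Cd8 cells and at 8.33 to 22.1 CPM in the other T cell states. Its control ranges overlapped from each state to the next through all 8 non-naive states. In memory Cd4 cells it was at 20.5 and 22.1 CPM in Runx1::Runx1t1 replicates 1 and 2 and at 12.7 and 10.8 CPM in the control pools. That difference passed the test (edgeR log2 fold change 0.90 ± 0.16, adjusted p = 0.0139). It missed the threshold without control replicate 2 (edgeR adjusted p = 0.0547), with DESeq2 (adjusted p = 0.0774) and without expanded clonotypes (0.52, edgeR adjusted p = 0.227). The values in memory Cd8 cells were 12.8 and 13.5 CPM against 11.2 and 12.2 CPM, and the test did not pass (edgeR adjusted p = 0.336).

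Il2rg, the shared gamma chain, was nearly level. Across naive, memory and Pdcd1 Cd8 cells it stayed between 474 and 552 CPM in every control pool and between 481 and 551 CPM in every Runx1::Runx1t1 pool. It was highest in Foxp3 Cd4 cells, at 962 and 993 CPM in the Runx1::Runx1t1 pools and 707 and 752 CPM in the control pools, 1.22 to 1.53 times the memory Cd4 level of the same pool. The control range overlapped that of invariant NKT cells. This state was not among those tested between groups. In the 6 tested states the log2 fold changes of Il2rg lay between -0.18 and 0.18 and none passed (edgeR adjusted p from 0.216 to 0.884).

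Both chains of the IL-18 receptor were lower in naive than in memory cells of every pool in which the ratio could be formed. Il18rap, the accessory chain, was at 2.08 to 3.27 CPM in naive Cd8 and at 27.2 to 43.2 CPM in memory Cd8 cells, 12 to 15.5 times higher in the same pool. Il18r1, the chain that binds IL-18, had a naive level of 13.6 to 16.7 CPM and a memory level of 31.3 to 56.8 CPM, 2.30 to 3.39 times higher. Il18r1 peaked in gamma-delta T cells (61.5 to 95.3 CPM), apart from the next state in both groups. Il18rap peaked in co-receptor-negative cells with NK receptors (56.0 to 68.4 CPM), also apart from the next state. In naive Cd4 cells of the Runx1::Runx1t1 group Il18rap had 0 UMIs in 265 cells, which allows up to 2.16 CPM (3 counts over the group, counting error only).

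Il18r1 differed between groups in 3 of the 5 states where it was tested. Il18r1 in memory Cd8 cells was at 31.3 and 37.5 CPM in Runx1::Runx1t1 replicates 1 and 2 and at 56.8 and 52.1 CPM in control replicates 1 and 2. It fell in memory Cd8 cells (edgeR log2 fold change -0.67 ± 0.087, adjusted p = 0.0102) and in memory Cd4 cells (-0.74 ± 0.13, edgeR adjusted p = 0.0115). In the co-receptor-negative cells with NK receptors it was at 43.0 and 38.5 CPM against 75 and 61.2 CPM and fell too (-0.76 ± 0.11, edgeR adjusted p = 0.00154). The groups did not overlap in any of these 3 states. All 13 alternatives kept the call in memory Cd8 cells and in the co-receptor-negative cells, while in memory Cd4 cells it was lost without control replicate 1 (-0.56, edgeR adjusted p = 0.0623) and without expanded clonotypes (-0.39, edgeR adjusted p = 0.158). Memory Cd4 cells also differed between groups in other genes. Their 10 natural killer genes summed to 642 and 536 CPM in the Runx1::Runx1t1 pools and to 1121 and 1313 CPM in the control pools, with 0 genes of the list undetected. Ccl5 was at 11809 and 14167 CPM against 2633 and 2801 CPM there, and Lag3 at 239 and 246 CPM against 83 and 25.3 CPM. In memory Cd8 cells the natural killer genes were lower in the Runx1::Runx1t1 pools too, with the sums given beside Il12rb2. Their part in the Il18r1 result was not tested. In naive Cd8 cells Il18r1 had 13.6 and 15.8 CPM against 16.7 and 16.5 CPM (edgeR log2 fold change -0.18 ± 0.16, adjusted p = 0.726). The difference of the difference between memory and naive Cd8 cells was -0.52 ± 0.17 and did not pass (edgeR adjusted p = 0.118).

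Il18rap did not pass the test in any of the 5 states where it was tested. Memory Cd8 cells had 35.7 and 27.2 CPM against 43.2 and 39.3 CPM (edgeR log2 fold change -0.39 ± 0.15, adjusted p = 0.184). In the co-receptor-negative cells with NK receptors it was at 67.5 and 56.0 CPM against 68.4 and 63.7 CPM, and the groups overlapped. Pdcd1 Cd8 cells showed a large shift of both chains that missed the threshold. Il18r1 was at 19.1 and 9.61 CPM against 39.3 and 49.5 CPM there (edgeR log2 fold change -1.78 ± 0.42, adjusted p = 0.0990), and Il18rap at 14.9 and 6.87 CPM against 31.6 and 34.7 CPM (-1.77 ± 0.45, edgeR adjusted p = 0.118). Both passed with DESeq2 (adjusted p = 0.00771 and 0.0261), and for each chain 5 of 12 alternatives passed. Without 1 pool Il18r1 ranged from -2.29 to -1.23 and Il18rap from -2.36 to -1.17. The stricter gate gave -1.64 and -2.18 (edgeR adjusted p = 0.268 and 0.243). Without expanded clonotypes they stood at -0.99 and -0.79 (edgeR adjusted p = 0.0926 and 0.237).

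Klrg1, a receptor of terminally differentiated effector cells, split the memory and Pdcd1 Cd8 cells for Il18rap. Cells with a Klrg1 UMI had 81.8 and 42.5 CPM of Il18rap in the Runx1::Runx1t1 pools and 108 and 90.9 CPM in the control pools. Cells without one had 28.9 and 19.4 CPM and 40.2 and 37.3 CPM, so the ratio within a pool was 2.19 to 2.83. Il7r went the other way, at 0.646 to 0.707 times in Klrg1 cells. Detection of a Klrg1 UMI can depend on depth, and a comparison as CPM does not remove such a selection of cells. Median depth with and without a Klrg1 UMI was 6139 against 8435 and 8435 against 7304 UMIs in Runx1::Runx1t1 replicates 1 and 2. In control replicates 1 and 2 it was 6254 against 7737 and 4859 against 7725 UMIs.

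At equal depth (each cell thinned to 2000 UMIs) each of the 2 chains of the IL-18 receptor was itself found in few cells. In memory Cd8 cells of a pool Il18r1 was found in 6.1 to 10.0% and Il18rap in 5.0 to 8.78%. Few joint detections at this depth do not show that the chains lie in different cells. Among memory Cd8 cells Il18rap was found in 6.37 to 12.4% of cells with an Il18r1 UMI and in 4.91 to 8.69% of cells without one. Among co-receptor-negative cells with NK receptors the shares were 13 to 23.1% and 10.0 to 13.2%. These rest on 16 to 56 and on 5 to 35 cells with both per pool, which is too few to read an order from.

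Il12rb2 had its highest levels in NK-like T cells. It was at 67.4 to 91.4 CPM in invariant NKT cells and at 48.4 to 51.6 CPM in the co-receptor-negative cells with NK receptors, each apart from the next state in both groups. Naive Cd8 cells had 0.384 to 2.50 CPM, and naive Cd4 cells had 0 UMIs in 265 and 231 cells of the Runx1::Runx1t1 and control groups, which allows up to 2.16 and 2.80 CPM. In 60 cells with B cell markers and no Cd3 UMI, taken from all libraries, no cell had an Il12rb2 UMI, which allows a share of cells with a UMI of up to 5.0% (3 counts of the 60). Of the same 60 cells, 3.33% had an Il2rb UMI, 3.33% an Il18r1 UMI, 1.67% an Il18rap UMI and 6.67% a Jak3 UMI (exact 95% intervals up to 11.5, 11.5, 8.94 and 16.2%), at a median of 3642 UMIs. Il7r and Il2rg were found in 28.3% and 51.7% of them. B-lineage cells of the marrow are known to use IL-7, so these cells are no blank for those genes.

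Memory Cd8 cells had Il12rb2 at 7.96 and 7.73 CPM in the Runx1::Runx1t1 pools and at 19.2 and 20.5 CPM in the control pools. The groups did not overlap (edgeR log2 fold change -1.35 ± 0.090, adjusted p = 0.00138), and all 13 alternatives passed with values from -1.48 to -1.24. In the co-receptor-negative cells with NK receptors the same gene was at 51.6 and 51.6 CPM against 48.4 and 49.3 CPM (edgeR log2 fold change 0.034 ± 0.095, adjusted p = 0.920). Among these cells 220 of 710 and 75 of 262 in the Runx1::Runx1t1 pools were invariant NKT cells. In the control pools 291 of 2003 and 267 of 1863 were. All invariant NKT cells had Il12rb2 at 76.2 and 67.4 CPM against 81.5 and 91.4 CPM. Leaving them out of the co-receptor-negative cells gave -0.32 (edgeR adjusted p = 0.231). The part of this mix was not tested. Whether memory Cd8 cells and the co-receptor-negative cells differ in the group effect was not tested. The 10 natural killer genes of a fixed list summed to 922 and 882 CPM in memory Cd8 cells of the Runx1::Runx1t1 pools and to 1513 and 1544 CPM in those of the control pools, with 0 genes of the list undetected. Of them Ncr1 and Klrk1 fell (-1.97 and -1.25, edgeR adjusted p = 0.0178 and 0.00138) and Eomes rose (0.93, edgeR adjusted p = 0.00651). The sums in the co-receptor-negative cells were 3438 and 4324 CPM against 3657 and 3802 CPM. The part of NK-like cells in the Il12rb2 result was not tested.

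Memory Cd4 cells had Il12rb2 at 13.1 and 6.1 CPM in the Runx1::Runx1t1 pools and at 24.0 and 35.1 CPM in the control pools. The groups did not overlap, and the test did not pass (edgeR log2 fold change -1.57 ± 0.49, adjusted p = 0.223), while DESeq2 gave -1.58 with adjusted p = 0.00379. In Pdcd1 Cd8 cells it was at 2.98 and 1.95 CPM against 6.71 and 9.48 CPM (edgeR log2 fold change -1.84 ± 0.55, adjusted p = 0.124).

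**Figure D2:**
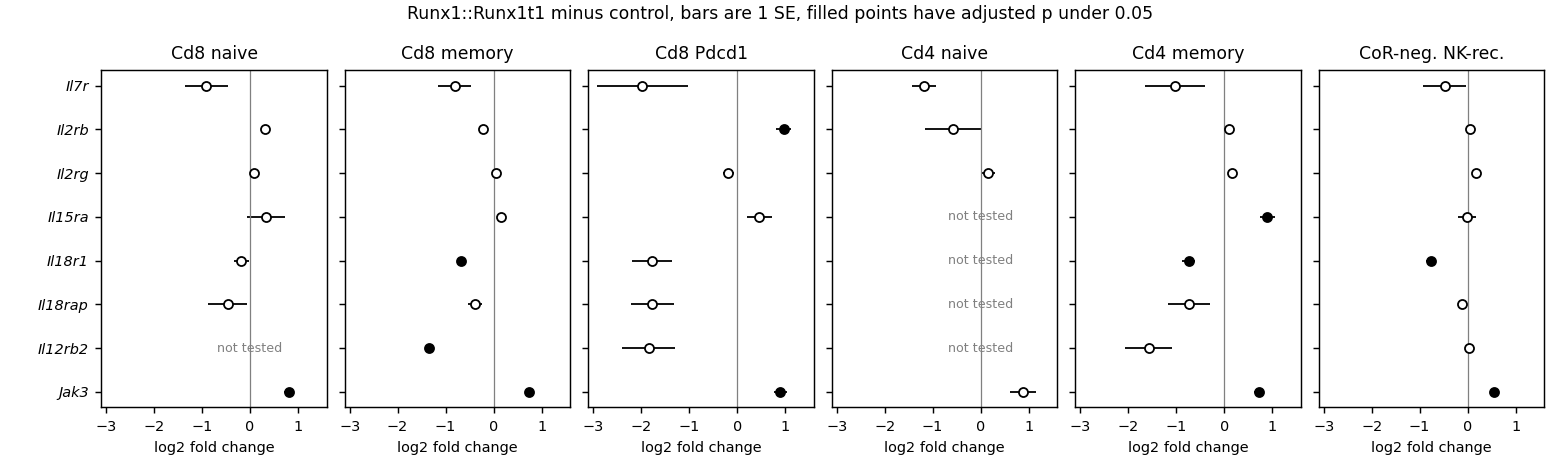
Log2 fold change of each gene, Runx1::Runx1t1 minus control, in the 6 tested states, from the edgeR fit on 2 pools per group. Bars are 1 standard error, computed as the absolute log2 fold change divided by the square root of the test's F. Filled points have an adjusted p under 0.05, and genes with too few counts for the fit are marked as not tested. Jak3 lies to the right of 0 in each panel, from 0.55 to 0.90, and Il7r to the left in each, with wide bars.

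Jak3, the kinase of the shared chain, passed the test between groups in more states than any other of the 8 genes. Naive Cd8 cells had 71.0 and 61.2 CPM in Runx1::Runx1t1 replicates 1 and 2 and 35.9 and 42.2 CPM in control replicates 1 and 2. Memory Cd8 cells had 86.1 and 84.9 CPM against 53.0 and 49.6 CPM, and Pdcd1 Cd8 cells 110 and 135 CPM against 66.2 and 60.0 CPM. The 2 groups did not overlap in any of the 10 T cell states. These states come from the same 4 libraries and some share cells, so they are not separate observations. The share of all genes without overlap is not given here.

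The rise passed the test in 5 of the 6 states. The edgeR log2 fold change was 0.81 ± 0.11 in naive Cd8 cells (adjusted p = 0.00016), 0.73 ± 0.057 in memory Cd8 cells (adjusted p = 0.00217) and 0.90 ± 0.14 in Pdcd1 Cd8 cells (adjusted p = 0.0167). In memory Cd4 cells, where the pools had 118 and 135 CPM against 86.7 and 70.7 CPM, it was 0.72 ± 0.10 (edgeR adjusted p = 0.00481). In the co-receptor-negative cells with NK receptors, at 85.5 and 93.4 CPM against 63.4 and 54.1 CPM, it was 0.55 ± 0.094 (edgeR adjusted p = 0.00408). Naive Cd4 cells had 106 and 58.9 CPM against 37.3 and 51.4 CPM, and 0.88 ± 0.27 did not pass (edgeR adjusted p = 0.178) with 111 to 151 cells per pool.

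Counted over the 8 genes, Jak3 was the 1 that passed in naive Cd8 cells, where 1.42% of 10142 genes did. Among memory Cd8 cells Jak3, Il18r1 and Il12rb2 passed, 3 of 8, where 5.77% of 12798 genes did. In memory Cd4 cells Jak3, Il18r1 and Il15ra passed, 3 of 8, where 4.19% of 11063 genes did. Among the co-receptor-negative cells with NK receptors Jak3 and Il18r1 passed, 2 of 8, where 3.67% of 10977 genes did. In naive Cd4 cells 0 of the 4 genes tested passed with edgeR, where 0.616% of 5845 genes did; Il7r and Jak3 had an unadjusted p of 0.00313 and 0.00246, and Il15ra, Il18r1, Il18rap and Il12rb2 had too few counts. Il12rb2 had too few in naive Cd8 cells as well. These counts rest on genes picked with such values in view.

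The size of the Jak3 difference did not differ detectably between memory and naive Cd8 cells. The interaction was -0.069 ± 0.11 on the log2 scale (edgeR adjusted p = 0.894). Jak3 was 1.18 to 1.47 times higher in memory than in naive Cd8 cells of the same pool and 1.21 to 1.59 times higher in Pdcd1 than in memory cells, in all 4 pools. Foxp3 Cd4 cells had the highest level in both groups, 148 and 159 CPM in the Runx1::Runx1t1 pools and 108 and 84.7 CPM in the control pools, of which the control range overlapped that of memory Cd4 cells.

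The share of cells with a Jak3 UMI was higher as well. Of the memory Cd8 cells 50.8% (95% Wilson interval 49.3 to 52.2) and 51.0% (49.4 to 52.5) had a Jak3 UMI in the Runx1::Runx1t1 pools, and 33.9% (32.4 to 35.5) and 32.0% (30.7 to 33.3) in the control pools. The intervals cover counting error only. After thinning each cell to 2000 UMIs the shares were 16.5 and 15.8% against 10.2 and 9.48%, with 50, 72, 25 and 27 cells left out as too shallow. Median depth was 8520 and 8646 UMIs in the Runx1::Runx1t1 pools and 7710 and 7673 UMIs in the control pools. A sum over cells does not separate more Jak3-expressing cells from more RNA per cell.

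Across memory Cd8 cells, memory Cd4 cells and the co-receptor-negative cells with NK receptors every alternative kept the call of Jak3, with log2 values of 0.69 to 0.77, 0.61 to 0.85 and 0.45 to 0.65. In naive Cd8 cells 12 of 13 did; the stricter gate gave 0.73 with edgeR adjusted p = 0.599. In Pdcd1 Cd8 cells 8 of 12 did, and the call was lost without control replicate 1 (0.99, edgeR adjusted p = 0.188) and without control replicate 2 (0.83, edgeR adjusted p = 0.201). The stricter gate gave 0.52 (edgeR adjusted p = 0.344) and leaving out high-UMI cells together with cells with a pair of TRB contigs 0.78 (edgeR adjusted p = 0.0531).

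Of the genes next to Jak3 on chromosome 8, the 5 tested on each side were read from the same fits. The lowest adjusted p over the 6 states was that of Tpm4 in naive Cd4 cells, with a log2 fold change of -0.80 (edgeR adjusted p = 0.0503).

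Other genes of the pathway were read from lists chosen with earlier results of these data known. Of the 9 Jak and Stat genes beside Jak3, Stat3 rose in memory Cd8 cells (0.34 ± 0.068, edgeR adjusted p = 0.0323), in memory Cd4 cells (0.43 ± 0.090, edgeR adjusted p = 0.0272) and in the co-receptor-negative cells with NK receptors (0.35 ± 0.086, edgeR adjusted p = 0.0363). Stat4, which IL-12 activates, rose in the last of these (0.36 ± 0.085, edgeR adjusted p = 0.0264). In naive and Pdcd1 Cd8 cells 0 of 9 passed with edgeR, and 2 and 1 of them had an unadjusted p under 0.05. The medians of the list lay between -0.12 and 0.086 in the 6 states, beside -0.011 to 0.0059 over all genes tested.

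Among 13 inhibitors of Jak signaling, Cish, which Stat5 induces and which dampens cytokine signals, rose in Pdcd1 Cd8 cells (0.80 ± 0.13, edgeR adjusted p = 0.0180) and in the co-receptor-negative cells with NK receptors (0.95 ± 0.097, edgeR adjusted p = 6.41e-05). In the latter cells Socs2 rose (0.70, edgeR adjusted p = 0.00119), Ptpn2 rose (0.34, edgeR adjusted p = 0.0417) and Ptpn6 fell (-0.44, edgeR adjusted p = 0.0129), 3 higher and 1 lower of 13 tested. Socs3 rose in naive Cd8 cells (0.49, edgeR adjusted p = 0.00293) and in memory Cd4 cells (0.41, edgeR adjusted p = 0.0254), where Ptpn6 fell (-0.66, edgeR adjusted p = 0.00279). Among memory Cd8 cells 0 of 13 inhibitors passed with edgeR, and 3 had an unadjusted p under 0.05.

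Of 14 target genes of Stat5 and Stat4, 8 to 14 were tested per state, with at most 3 higher and 1 lower. The survival kinase gene Pim1 rose in naive Cd8 cells (0.63 ± 0.085, edgeR adjusted p = 6.31e-05), in memory Cd8 cells (0.44 ± 0.072, edgeR adjusted p = 0.0177) and in the co-receptor-negative cells with NK receptors (0.51 ± 0.070, edgeR adjusted p = 0.000697). Pim2 rose in the last 2 of these (0.47 and 0.51, edgeR adjusted p = 0.0127 and 0.00915). The cytotoxic genes Gzmb and Prf1 rose in Pdcd1 Cd8 cells (1.84 and 1.0, edgeR adjusted p = 0.00669 and 0.0242), while Myc fell there (-1.11, edgeR adjusted p = 0.00895) and in memory Cd4 cells (-0.64, edgeR adjusted p = 0.0203). Furin rose and the survival gene Bcl2 fell in the co-receptor-negative cells (0.47 and -0.29, edgeR adjusted p = 0.0285 and 0.0490). The list medians were -0.01 to 0.21.

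Of 7 other receptors of these families, Il4ra rose in naive Cd8 cells (0.53, edgeR adjusted p = 0.000985), Il12rb1, the partner chain of Il12rb2, rose in memory Cd4 cells (0.79, edgeR adjusted p = 0.0121) and Il21r rose in the co-receptor-negative cells with NK receptors (0.36, edgeR adjusted p = 0.0196). Among 10 relatives and adaptors of the IL-18 receptor, the IL-33 receptor gene Il1rl1 rose in memory Cd8 cells (2.04 ± 0.35, edgeR adjusted p = 0.0210). The adaptor kinase gene Irak2 rose in Pdcd1 Cd8 cells (1.31, edgeR adjusted p = 0.0387) and in the co-receptor-negative cells (0.58, edgeR adjusted p = 0.00319). Of 11 ligand genes 1 to 6 had enough counts per state, and Il4 in the co-receptor-negative cells was the 1 that passed (1.2, edgeR adjusted p = 0.000917).

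Clone size came from the T cell receptor libraries. Memory and Pdcd1 Cd8 cells of clonotypes with 5 or more Cd8 cells in the pool were compared with those of clonotypes with 1 cell, with the pool as a block. The expanded sums held 994 and 2211 cells in the Runx1::Runx1t1 pools and 136 and 367 cells in the control pools, and 49.5% of those of Runx1::Runx1t1 replicate 2 were 1 clonotype. Their median depth was 5441 and 5828 UMIs in the Runx1::Runx1t1 pools and 5342 and 5291 UMIs in the control pools. Cells of single-cell clonotypes had 9484 and 9694 UMIs and 8002 and 8137 UMIs. The CPM values scale by total UMIs and the tests by TMM. The part of depth in the differences was not tested.

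Il15ra was higher in the summed cells of expanded clonotypes than in those of single-cell clonotypes. It was at 11.4, 11.3, 10.9 and 11.1 CPM in single-cell clonotypes and at 20.1, 21.2, 22.4 and 23.6 CPM in expanded ones, in the order Runx1::Runx1t1 replicates 1 and 2 and control replicates 1 and 2. The edgeR log2 fold change was 0.69 ± 0.13 (adjusted p = 0.0118), higher in 4 of 4 pools, and 11 of 12 alternatives passed. The exception was the fit without Runx1::Runx1t1 replicate 1 (0.75, edgeR adjusted p = 0.0793). It was the 1 gene of the 8 that passed, where 19.7% of 12277 genes did, so a pass sets a gene little apart in this fit.

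**Figure D3:**
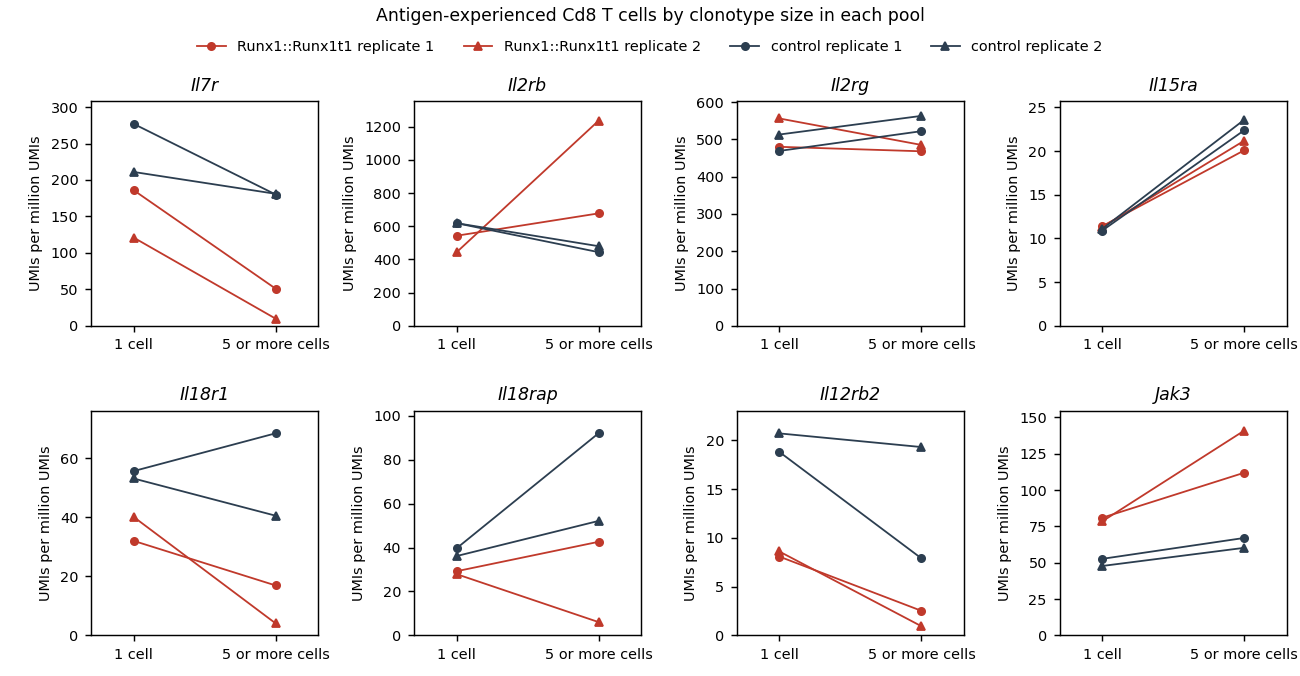
Level of each gene in memory and Pdcd1 Cd8 T cells of clonotypes with 1 cell and with 5 or more cells, in UMIs per 1000000 UMIs on linear axes from 0. A line joins the 2 values of 1 pool. Il15ra rises along parallel lines in the 4 pools, from about 11 to 20.1 to 23.6 CPM, while Il2rb rises in the Runx1::Runx1t1 pools and falls in the control pools.

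Il7r was lower in expanded clonotypes of all 4 pools, at 50.8 and 9.69 CPM in the Runx1::Runx1t1 pools and 180 and 181 CPM in the control pools, against 186 and 121 CPM and 277 and 211 CPM in single-cell clonotypes. The ratio ranged from 0.0799 to 0.861, and the test did not pass (edgeR log2 fold change -1.80 ± 0.75, adjusted p = 0.196). Il12rb2 was lower in 4 of 4 pools as well (-1.74 ± 0.55, edgeR adjusted p = 0.0876). Jak3 was 1.26 to 1.80 times higher in expanded clonotypes of all 4 pools (0.26 ± 0.099, edgeR adjusted p = 0.104). With total UMIs in place of TMM scaling its value was 0.52 (edgeR adjusted p = 0.00924). Il2rb went opposite ways in the 2 groups, at 1.25 and 2.79 times in the Runx1::Runx1t1 pools and 0.718 and 0.775 times in the control pools, with no overall difference detected (-0.020 ± 0.38, edgeR adjusted p = 0.983). The group difference of that ratio was not tested.

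In the same fit 19.7% of 12277 genes passed, and no list was tested as a set. Il12rb1 rose with clone size (0.91, edgeR adjusted p = 0.00300), as did Tyk2 (0.48, edgeR adjusted p = 0.0153). Of 13 inhibitors 3 rose and 2 fell: Cish (1.15, edgeR adjusted p = 0.000835), Ptpn11 (0.86, edgeR adjusted p = 0.0157) and Socs4 (0.45, edgeR adjusted p = 0.0490) were higher, and Socs3 (-0.53, edgeR adjusted p = 0.0125) and Socs1 (-0.28, edgeR adjusted p = 0.0477) lower. Among targets Gzmb rose by 2.83, Prf1 by 1.71 and Ifng by 1.56 on the log2 scale (edgeR adjusted p = 0.00579, 0.00283 and 0.000248). Pim2 fell (-0.80, edgeR adjusted p = 0.00112), as did Pim1 (-0.92, edgeR adjusted p = 0.0333) and Bcl2 (-0.84, edgeR adjusted p = 0.0377), and Il4ra fell (-2.22, edgeR adjusted p = 0.0358).

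Single clonotypes of 20 or more Cd8 cells could be read in 3 pools, 12 and 14 in the Runx1::Runx1t1 pools and 4 in control replicate 2; control replicate 1 had none. Il7r was below the level of the pool's single-cell clonotypes in 12 of 12 and 14 of 14 of those of the Runx1::Runx1t1 pools and in 2 of 4 of those of control replicate 2. Jak3 was above the single-cell level in 11 of 12, 13 of 14 and 3 of 4. Il15ra was above it in 7 of 12, 13 of 14 and 3 of 4. The cells of a clonotype share 1 ancestor and 1 pool, so these are descriptions of clonotypes and not replicates.

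The large clonotypes of the Runx1::Runx1t1 pools were split, after their values were seen, by whether 50% of their cells had a Pdcd1 UMI. In replicate 1 the 5 with more had 803 to 1347 CPM of Il2rb, 0 to 24.1 CPM of Il7r and 0 to 3.48 CPM of Il18rap. The other 7 had 306 to 494 CPM of Il2rb, 24.2 to 134 CPM of Il7r and 57.6 to 153 CPM of Il18rap. In replicate 2 the 11 with more had 825 to 1726 CPM of Il2rb, 0 to 24.9 CPM of Il7r and 0 to 14.6 CPM of Il18rap. The other 3 had 366 to 542 CPM of Il2rb, 20.3 to 58.6 CPM of Il7r and 6.77 to 130 CPM of Il18rap. The ranges of Il2rb did not overlap in either pool, while those of Il18rap were apart in replicate 1 and overlapped in replicate 2. Those of Il7r nearly met in replicate 1, at 24.1 and 24.2 CPM, and overlapped in replicate 2. The largest clonotype, with 1096 cells, had 1518 CPM of Il2rb, 4.52 CPM of Il7r, 1.09 CPM of Il18rap and 140 CPM of Jak3, and it held 38% of the Pdcd1 Cd8 cells of its pool.

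**Figure D4:**
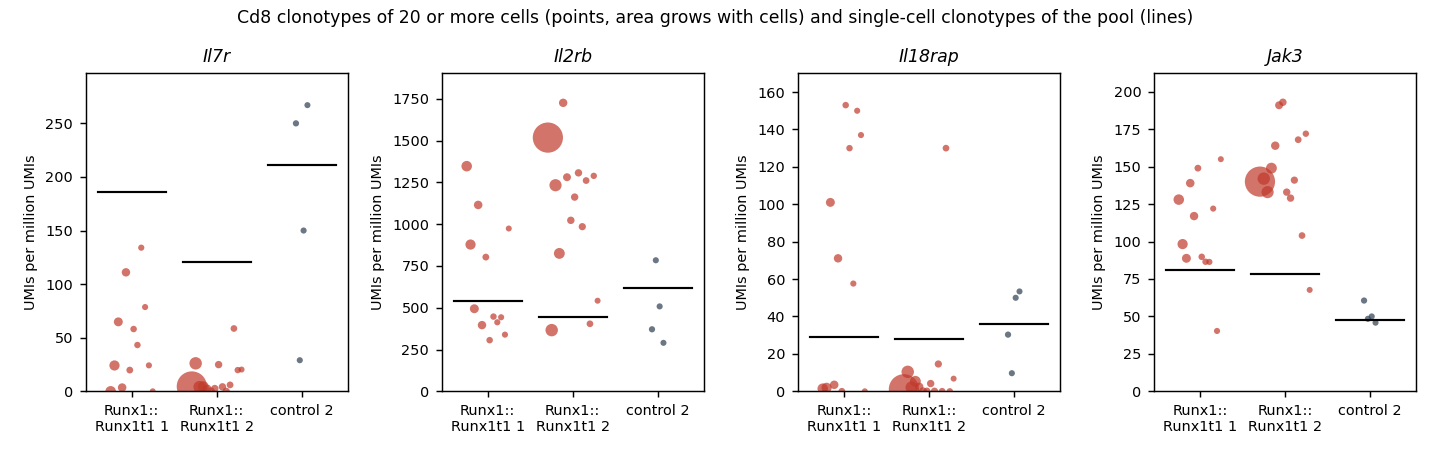
Il7r, Il2rb, Il18rap and Jak3 in single Cd8 clonotypes of 20 or more cells, in UMIs per 1000000 UMIs on linear axes from 0, with the area of a point growing with the number of cells. Lines give the level in single-cell clonotypes of the same pool. The 12 and 14 clonotypes of the Runx1::Runx1t1 pools lie under their Il7r lines, and for Il2rb and Il18rap they fall into a high and a low set in replicate 1.

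Genes with the most similar pattern were sought over 36 sums (9 states in 4 pools, among 5605 genes with a mean of 20 CPM or more) by Pearson's r of log2(CPM + 1). The sums of a pool share a library, so r is a description. Il2rb was closest to Tbx21 (r = 0.96), a transcription factor of effector cells, then to Zcchc18 and Gem (r = 0.95). Il18rap was closest to Il10rb and Hopx (r = 0.94) and to Tbx21 (r = 0.93), and Il12rb2 to Arhgap26 (r = 0.94), Klrb1c (r = 0.93) and Xcl1 (r = 0.92), where Klrb1c was used in the gate of 1 state. Il18r1 was closest to Ifnar2 (r = 0.91), Vars (r = 0.90) and its own partner Il18rap (r = 0.88). Jak3 was closest to Psma2 (r = 0.91), Skil and Rnf125 (r = 0.88). Il2rg was closest to Traf1 (r = 0.92), Nfkbia (r = 0.91) and Fth1 (r = 0.90), and Il15ra to Plekha2 (r = 0.95), Osbpl3 and Gng2 (r = 0.93). Il7r had the loosest neighbors, Atp1b3 (r = 0.86), Prrc2c (r = 0.83) and Rabac1 (r = 0.82).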

How the data were processed

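Pooled marrow T cells were profiled by 10x 5′ single-cell RNA sequencing with T cell receptor libraries. The authors deposited UMI counts per gene and cell barcode and T cell receptor contigs; the submitters' processing notes name Cell Ranger 6.1.2 and GRCm38, and the annotation release is not given in the sources used here. The members and gene lists were chosen with earlier results of these data known. Barcodes under 200 genes or over 15% mitochondrial UMIs were dropped. T cells had a Cd3d, Cd3e or Cd3g UMI and fewer than 2 of 12 genes of other lineages, and states were set by UMI gates. No doublet caller was used; barcodes with both Cd4 and Cd8 UMIs (2260) were left out, and an alternative dropped cells above 2 times the library's median UMIs or with a pair of TRB contigs. Counts were summed per pool and state with at least 20 cells, since cells are not replicates, and tested with edgeR 4.0.16 (filterByExpr, TMM, quasi-likelihood F test, R 4.3.3), with Benjamini-Hochberg adjustment over all genes tested. The 2 pools per group limit precision, and the p-values of the tests between groups measure spread between pools of 2 mice. The interaction and clone-size fits had the pool as a block, so their p-values rest on the spread of differences within pools. The SE after each ± was computed from the edgeR test, as the absolute log2 fold change divided by the square root of F. DESeq2 1.42.0, other scalings, filters and gates, a replicate block and leaving out each pool were alternatives. The script was tested on simulated data. Named genes were the 8 members, list genes past the threshold (at most 6 per list and comparison), the 5 tested genes on each side of Jak3 and the 3 most similar genes per member. Values of the authors' receptor clonotype tables other than chain, gene segment and CDR3 were not used. A result that the naming rule picks is not reported here.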

Additional observations from a re-analysis of the deposited data

Results flagged for a closer look

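The group difference of Il2rb was not the same in memory and naive Cd8 T cells by a test of the difference itself. The memory difference minus the naive difference was -0.55 ± 0.080 on the log2 scale (edgeR quasi-likelihood interaction with the pool as a block, adjusted p = 2.83e-06). Il2rb was lower in both Runx1::Runx1t1 pools than in both control pools in memory cells and higher in both in naive cells, though neither difference passed on its own. Without the pool block the interaction was -0.54 (edgeR adjusted p = 0.379). Of 13 alternatives 10 passed and 12 kept the sign, and the stricter gate gave 0.14 (edgeR adjusted p = 0.986), with the naive difference at -0.33.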

How the results depend on the processing

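Each alternative changed 1 choice, except that the thresholds on genes and mitochondrial UMIs were changed together, and high-UMI cells were left out together with cells with a pair of TRB contigs (called the doublet setting here). Jak3 kept its direction in the 6 between-group comparisons under the alternatives run. Its log2 value lost the threshold under the stricter gate in naive (0.73) and Pdcd1 Cd8 cells (0.52), and under the doublet setting in Pdcd1 Cd8 cells (0.78). Leaving out 1 pool gave 0.79 to 1.0 in Pdcd1 Cd8 cells, not past the threshold without control replicate 1 (0.99) or 2 (0.83), and 0.45 to 1.29 in naive Cd4 cells, past it without Runx1::Runx1t1 replicate 2 (1.29) or control replicate 2 (1.17). The memory minus naive value of Jak3, never past the threshold, changed sign under the stricter gate (0.019), and without a pool it ranged from -0.23 to 0.11 (0.08 without Runx1::Runx1t1 replicate 1). The cause of these changes was not tested.

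Counts of genes called moved more. In naive Cd8 cells, 144 became 66 with DESeq2, 93 with total UMIs, 266 with no filter, 17 with the stricter gate, 685 with the Ccl5 gate and 162 to 281 without 1 pool. In memory Cd8 cells, 739 became 1523 with no filter, 445 with the doublet setting and 177 to 980 without 1 pool. In Pdcd1 Cd8 cells, 257 became 1088 with no filter, 44 with the stricter gate, 87 with the doublet setting, 97 without expanded clonotypes and 0 to 1149 without 1 pool, the 0 being without either control pool. In naive Cd4 cells, 36 became 12 with DESeq2, 56 with no filter, 11 with the stricter gate, 23 with the doublet setting and 32 to 72 without 1 pool. In memory Cd4 cells, 463 became 1057 with no filter, 195 without expanded clonotypes and 246 to 962 without 1 pool. In the co-receptor-negative cells, 403 became 190 with DESeq2, 738 with no filter and 268 without invariant NKT cells. By clone size, 2413 became 4403 with total UMIs and 551 to 2408 without 1 pool. The Ccl5 gate and the set without invariant NKT cells were chosen after seeing the data.

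The replicate block called 343, 1541, 591, 60 and 705 genes in naive, memory and Pdcd1 Cd8 cells, naive Cd4 cells and the co-receptor-negative cells. Same-numbered pools share a number and not animals, and their deviations correlated at 0.0672 to 0.317. The filter on low counts kept Il12rb2 out of the test in naive Cd8 cells. Without that filter its log2 value there was -0.053 (edgeR adjusted p = 0.983).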

Other observations

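In the same interaction fit of memory against naive Cd8 T cells, other genes of the receptor pathway had a lower log2 group difference in memory than in naive cells. That fit had the pool as a block, so its p-values rest on differences within pools. Values of these genes without the block are not given here. Il4ra, the IL-4 receptor chain, had an interaction of -0.42 ± 0.084 on the log2 scale (edgeR adjusted p = 0.000777), and Il21r had -0.27 ± 0.079 (edgeR adjusted p = 0.0480). The inhibitor gene Socs3 had -0.47 ± 0.070 (edgeR adjusted p = 2.9e-06), and the survival gene Bcl2 had -0.32 ± 0.066 (edgeR adjusted p = 0.00123).

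With clone size, the cytokine gene Il21 rose by 3.75 and Il4 fell by 2.58 on the log2 scale (edgeR adjusted p = 0.0127 and 0.0469). In that fit 19.7% of 12277 genes passed.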
